A study of Mus musculus with 2 samples.

Results

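Macrophages, monocytes and related myeloid cells of mouse skeletal muscle were chosen by their RNA counts. A barcode was a member when it held 1000 or more UMIs (unique molecular identifiers, 1 per captured transcript), at most 25% of them from mitochondrial genes, 5 or more UMIs of Lyz2 and at least 1 of Csf1r, Adgre1, Cd68 or Itgax. It also had to hold fewer than 3 UMIs of Cd79a and Cd79b together, fewer than 2 of Cd3d, Cd3e and Cd3g together, and none of Pdgfra. Of 7658 barcodes, 73 met this gate, 65 of 5159 in the quadriceps library (1.26%, 95% exact binomial interval 0.974 to 1.60) and 8 of 2499 in the diaphragm library (0.320%, 0.138 to 0.630). All further cells in the text are these 73, called gated cells, unless another gate is named.

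The libraries came from C57BL/6J mice, 10 animals in all, with sex and age not given in the sources used here. Each muscle was digested with collagenase B and dispase II, mononuclear cells were collected over a Lympholyte-M density step, and viable cells were sorted by light scatter with no antibody for a cell type. Cells of several mice were combined into 1 suspension for each muscle before 10x Chromium 3′ capture, so there is 1 library per muscle and the files carry no mark of the animal. Muscle, pool of animals and library therefore cannot be told apart, and no difference between the muscles was tested. All intervals in parentheses are 95% exact Poisson (levels and folds) or binomial (shares) intervals that cover counting error only.

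Tissue macrophages clear dying cells and debris and produce complement C1q, the recognition unit of the classical complement pathway. Monocytes are made in bone marrow, circulate in blood and carry Ly6C and CCR2 in their classical form, while conventional dendritic cells specialise in presenting peptides on MHC class II to CD4 T cells. In muscle, resident macrophages lie around fibres and fascia, and recruited monocytes give rise to further macrophages after injury. All of these cells share lysozyme, Fc receptor adaptors and lysosomal proteases, so genes such as Lyz2 mark the whole family and not 1 type.

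Quadriceps gated cells held 2251, 8570 and 24712 UMIs at the lowest, the median and the highest, and diaphragm gated cells 7372, 17424 and 24367. Summed over cells this gave 573526 and 137709 UMIs, the depth behind every level below. The median mitochondrial share was 3.54% and 2.76%, and 12 of the 65 quadriceps cells were above 5%, the limit the study applied to its human cells. The study also filtered its mouse cells on mitochondrial content and on low and very high UMI counts. Its limits were not those of the gate, so gated cells may include barcodes that it left out. Levels are given as CPM, counts per 1000000, that is the UMIs of a gene divided by all UMIs summed over the cells named and scaled. B, T and NK gates built on Cd79a and Cd79b, on Cd3 genes and on Nkg7, Klrb1c and Ncr1 held 208, 125 and 76 quadriceps barcodes and 45, 62 and 8 diaphragm barcodes. Among all these immune barcodes the gated cells made up 65 of 474 in quadriceps (13.7%, 10.7 to 17.1) and 8 of 123 in diaphragm (6.50%, 2.85 to 12.4), and these intervals overlap. A gate for fibro-adipogenic progenitors (FAPs, stromal cells gated on 2 or more UMIs of Pdgfra, none of Ptprc and fewer than 5 of Lyz2) held 2161 and 1966 barcodes and serves as the background level.

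The edge of the gate was sparsely filled. In quadriceps 76 barcodes within the UMI and mitochondrial limits had 5 or more Lyz2 UMIs, of which 5 lacked all 4 receptor or marker genes (Lyz2 6 to 46), 6 held Pdgfra, and none was lost for B or T cell genes. In diaphragm 10 barcodes reached the Lyz2 minimum and 2 of them held Pdgfra. The 6 and 2 barcodes lost for Pdgfra carried 2 to 330 and 1 to 767 UMIs of FAP genes. Just outside, 7 quadriceps barcodes and 1 diaphragm barcode met all other conditions with Lyz2 at 1 to 4 UMIs, the highest at 2 in both. Just inside, 5 quadriceps cells had Lyz2 at 5 to 8 with the lowest at 6, 5 quadriceps cells had only 1 UMI of Csf1r, Adgre1, Cd68 and Itgax together, and the lowest diaphragm cell had 16 Lyz2 UMIs.

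Upstream sequences of genes that define the gate and its subgroups, and of Lyz1, are shown as a description only. The counts came from transcripts, so likeness of these windows does not show whether reads were shared between genes. Windows were taken from RefSeq on GRCm38.p6 as the 250 bases before the listed start, with any base inside the GENCODE gene removed, and are printed 5′ to 3′ on the strand of the gene. Capitals mark either the core of a binding site for PU.1, the myeloid factor encoded by Spi1 (GAGGAAGT, or ACTTCCTC on the other strand), or a Y box, an element of class II promoters (CTGATTGG, or CCAATCAG on the other strand). These 2 motifs do not overlap in the printed windows. The Lyz2 (chr10:117282322-117282522, minus strand) and Lyz1 (chr10:117292869-117293118, minus strand) windows lie in tandem upstream of lysozyme genes on chromosome 10. The C1qc window (chr4:136893066-136893164, minus strand) holds a PU.1 core 195 to 188 bases before the start, and the Ly6c2 window (chr15:75111972-75112221, minus strand) holds one 108 to 101 bases before the start. The H2-Aa window (chr17:34287824-34288073, minus strand) holds a Y box 51 to 44 bases before the start, and the H2-Eb1 window (chr17:34305617-34305866, plus strand) holds one 62 to 55 bases before the start.

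Lyz2: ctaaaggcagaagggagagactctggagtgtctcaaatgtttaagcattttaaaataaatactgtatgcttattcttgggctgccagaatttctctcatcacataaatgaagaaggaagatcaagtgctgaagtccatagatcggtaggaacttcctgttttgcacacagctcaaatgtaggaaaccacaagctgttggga
Lyz1: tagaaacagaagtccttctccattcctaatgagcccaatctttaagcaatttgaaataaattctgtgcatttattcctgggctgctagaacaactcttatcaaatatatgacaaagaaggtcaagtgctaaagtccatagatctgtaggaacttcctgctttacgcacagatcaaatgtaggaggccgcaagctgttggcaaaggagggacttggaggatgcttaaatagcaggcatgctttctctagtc
C1qc: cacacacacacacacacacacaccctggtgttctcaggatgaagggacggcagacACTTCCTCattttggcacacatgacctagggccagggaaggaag
Ly6c2: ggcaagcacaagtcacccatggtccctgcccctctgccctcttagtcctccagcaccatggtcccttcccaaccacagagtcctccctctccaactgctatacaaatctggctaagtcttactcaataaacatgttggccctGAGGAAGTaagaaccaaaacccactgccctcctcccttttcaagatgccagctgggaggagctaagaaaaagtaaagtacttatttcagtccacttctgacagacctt
H2-Aa: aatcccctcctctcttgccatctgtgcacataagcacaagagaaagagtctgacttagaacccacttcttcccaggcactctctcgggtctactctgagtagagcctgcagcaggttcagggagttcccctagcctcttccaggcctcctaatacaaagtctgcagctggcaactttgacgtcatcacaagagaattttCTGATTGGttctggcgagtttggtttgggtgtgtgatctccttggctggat
H2-Eb1: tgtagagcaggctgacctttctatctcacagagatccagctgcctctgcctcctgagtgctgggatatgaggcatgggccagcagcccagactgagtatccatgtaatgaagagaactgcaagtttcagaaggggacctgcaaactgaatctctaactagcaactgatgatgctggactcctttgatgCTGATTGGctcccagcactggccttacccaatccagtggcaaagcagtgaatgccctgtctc

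With the full 250-base windows aligned end to end, gene bases included, Lyz2 and Lyz1 were identical in 200 of 252 columns (79.4%), against 118 of 265 (44.5%) for C1qb and C1qc and 132 of 270 (48.9%) for H2-Aa and H2-Eb1. The PU.1 core stood in 802 of 32851 windows of the RefSeq table (2.44%) and the Y box in 1258 (3.83%), on either strand. Counted by gene, as in the lists that follow, they stood in 755 of 27025 genes (2.79%) and 1198 of 27025 genes (4.43%). Of the genes with a window, 0 of 15 pan-myeloid, 2 of 16 macrophage (C1qc and Pf4), 2 of 10 classical monocyte (Ly6c2 and Ly6c1) and 3 of 11 neutrophil genes held the PU.1 core. The Y box stood in 3 of 11 class II genes (H2-Aa, H2-Eb1 and H2-Oa). These matches describe letters in the windows and were not read as sites.

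Markers of the label were present in the gated cells and near 0 in FAPs. Ctss, the cathepsin that trims the invariant chain of class II, had UMIs in 63 quadriceps cells and 8 diaphragm cells, at levels of 1447 CPM (1350.4 to 1549) and 959 CPM (802 to 1137). Ms4a6c, a membrane protein of monocytes and macrophages, was seen in 50 and 7 cells at 1011 CPM (931 to 1097) and 349 CPM (257 to 462). In the FAP gate of quadriceps these genes stood at 0.247 and 0.494 CPM. Il1b, the cytokine interleukin-1 beta, was seen in only 29 and 3 cells, so it marked a minority of the members of either library. H2-Ab1, a class II beta chain, was seen in 39 quadriceps cells and in all 8 diaphragm cells.

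The genes that chose the cells were high by construction. Lyz2, lysozyme 2, stood at 22359.9 CPM (21975 to 22750.3) in quadriceps and 6724 CPM (6298 to 7172) in diaphragm gated cells, against 2.43 CPM in the other immune barcodes and 3.30 CPM in the FAP gate of quadriceps. Per cell it ran 6, 100 and 731 UMIs in quadriceps and 16, 82 and 391 in diaphragm (lowest, median, highest). Csf1r, the receptor for macrophage colony-stimulating factor, was seen in 49 of 65 and 5 of 8 cells, Cd68, a lysosomal glycoprotein, in 57 and 8, Adgre1 (F4/80) in 31 and 3, and Itgax (CD11c) in 11 and 3. Cd68 and Csf1r were thus the most widely held of these 4 genes. Thinned to 1000 UMIs per cell, 69.2% of quadriceps gated cells kept Ctss (96.9% unthinned, median 8570 UMIs), against 20.8% of other immune barcodes (median 3565 UMIs) and 0 of 2161 FAP barcodes (median 10735 UMIs).

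Against the other immune barcodes, the gated cells were higher for phagocyte genes. Because the gate was set on genes of this contrast, the counts that follow are descriptions from which nothing is read. At least 4-fold higher were 221 of 2584 genes tested (8.55%) in quadriceps and at least 4-fold lower 112 of 2584 genes tested (4.33%), and in diaphragm 262 of 2649 genes tested (9.89%) were at least 4-fold higher. The median log2 fold of all genes tested was 0.09 and 0.19. Of 19 pan-myeloid genes tested in quadriceps, 10 were past 4-fold and 0 below (median log2 2.02). Tyrobp, the DAP12 signalling adaptor, stood at 2385 against 589 CPM, and Spi1, the gene of PU.1, at 474 against 35.8. Tyrobp and Fcer1g, which NK cells also use, were seen in all 65 quadriceps gated cells.

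Complement, lysosomal and scavenger genes followed. Past 4-fold were 6 of 6 complement genes, 11 of 17 lysosomal genes and 7 of 7 scavenger and pattern receptors, beside 8.55% of all genes. The complement list summed to 2708 CPM in quadriceps gated cells, against 99.6 in the other immune barcodes and 2832 in the FAP gate. It was thus not above the FAP level. C1qa had 413 UMIs in the gated cells and 0 in 409 other immune barcodes (at least 395-fold higher), and F13a1, the A chain of coagulation factor XIII, had 258 and 0 (at least 247-fold). Ccl6, a chemokine of myeloid cells, had 531 UMIs in 56 of 65 cells against 1 UMI outside. Psap, prosaposin, was seen in all 65 cells at 2865 against 205 CPM. The class II list was split in quadriceps, with 4 of 13 genes past 4-fold higher (Ctss, H2-DMb1, Ifi30, Lgmn) and 2 lower (H2-DMb2 and H2-Ob, peptide-loading genes also known from B cells). In diaphragm 9 of 13 were past 4-fold higher and 0 lower.

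Lymphoid and stromal genes were low in the gated cells, in part by construction. Of lymphocyte genes tested, 4 of 4 B cell, 3 of 3 T cell and 6 of 6 NK cell genes were at least 4-fold lower, which the lymphocyte gates of the comparison barcodes fixed in part, since Nkg7, Klrb1c and Ncr1 chose the NK barcodes. Of the NK list only Klrk1 had UMIs in the gated cells (31 in quadriceps), and 7 of the 8 genes were at 0, Nkg7 and Ncr1 among them. All mast cell genes but Kit and Hdc were at 0 in quadriceps. FAP genes summed to 647 CPM in quadriceps and 697 in diaphragm gated cells, against 84620.2 and 81088 in the FAP gates. The gates fixed this gap in part. Gated cells had to lack Pdgfra, a gene of the FAP list, and Pdgfra chose the FAP barcodes. Barcodes lost from the gate for Pdgfra carried up to 330 UMIs of FAP genes in quadriceps and up to 767 in diaphragm. Per cell the FAP list ran 0, 6.31 and 24.3 UMIs per 10000 in quadriceps.

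A set of 50 human genes that the study itself chose to mark myeloid cells of human muscle was followed in the mouse cells. By capitalised symbol alone 37 had a mouse gene in the files, and all 37 had UMIs in quadriceps gated cells and 32 in diaphragm. Of the 26 tested in quadriceps, 19 were at least 4-fold above the other immune barcodes and 0 below (median log2 3.38, beside 0.09 for all genes). Of all genes tested 8.55% were at least 4-fold higher. Among the 19 were Lst1, Igsf6, Cybb and Cfp. S100a8 and S100a9 were also among them, but nearly all of their UMIs sat in 3 cells with a neutrophil-like profile. S100a8, S100a9, Lilra5, Fpr1 and Fam26f were at 0 in the diaphragm cells. Human genes with no mouse gene of the same symbol were not analysed here.

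Within the gate, C1q and class II split the cells. The sum of C1qa, C1qb and C1qc reached 5 UMIs in 13 of 65 cells (20%, 11.1 to 31.8) of quadriceps and in 3 of 8 cells (37.5%, 8.52 to 75.5) of diaphragm. The sum of H2-Aa, H2-Ab1 and H2-Eb1 reached 10 UMIs in 34 of 65 cells (52.3%, 39.5 to 64.9) and in 8 of 8 cells (100%, 63.1 to 100). In quadriceps 10 of the 13 C1q cells also passed the class II cut, 24 cells had class II without C1q (36.9%), and 28 had neither (43.1%). All 8 diaphragm cells had class II, 3 with C1q and 5 without, and 0 of 8 had neither, which allows a share of up to 37.5%. A cut on counts makes a range and not a cell type, but few cells lay near it.

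Both sums were close to all or none. In quadriceps the C1q sum was 0 in 48 cells, 1 to 4 in 4, 5 to 10 in 1 and 25 or more in 12. The class II sum was 0 in 25 cells, 1 to 9 in 6, 10 to 50 in 3 and above 50 in 31. In diaphragm the C1q sum was 0 in 5 cells and at least 25 in 3. Thinned to 1000 UMIs per cell, 1 or more UMIs of C1q remained in 15 of 65 quadriceps cells (23.1%) and of class II in 38 (58.5%), against 0.139% and 0.694% of FAP barcodes. Of the other immune barcodes 0 of 409 kept C1q and 206 of 409 (50.4%) kept class II, a share whose interval overlapped that of the gated cells. The quadriceps C1q cells were shallower, with a median of 5043 UMIs against 10321 in the class II cells without C1q, and their median mitochondrial share was 5.15%. With a limit of 5% mitochondrial UMIs the C1q share of quadriceps was 11.3% in place of 20%, and the part of the mitochondrial share in this value was not tested.

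**Figure D1:**
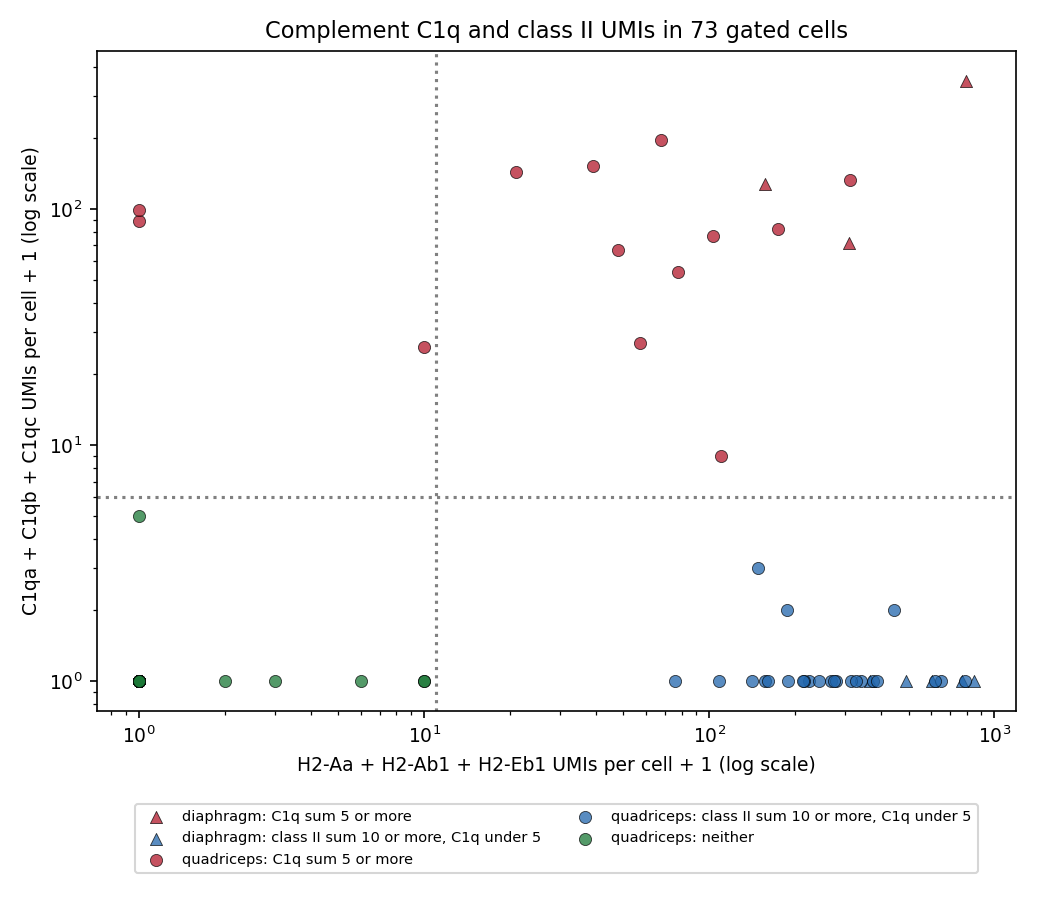
UMIs per cell of the class II sum (H2-Aa, H2-Ab1, H2-Eb1, horizontal) and the C1q sum (C1qa, C1qb, C1qc, vertical), each plus 1 on log axes, for the 73 gated cells, where colours give the groups, triangles the diaphragm cells and dotted lines the cuts. The 13 quadriceps and 3 diaphragm C1q cells stand apart at the top, and 48 quadriceps cells lie at a C1q sum of 0.

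The 13 quadriceps C1q cells were high for macrophage genes. Their C1q sum ran 8, 81 and 195 UMIs (lowest, median, highest), Csf1r was seen in 13 of 13 at 1, 6 and 14 UMIs, and Lyz2 ran 8, 41 and 239. Csf1r is a gate gene, and 3 of these cells had no UMI of the other 3 receptor or marker genes, so its presence there was fixed by the gate. Set against the other 52 quadriceps gated cells, 181 of 1330 genes tested (13.6%) were at least 2-fold higher and 153 of 1330 genes tested (11.5%) at least 2-fold lower, with the C1q genes left out. Of 13 macrophage genes tested, 12 were 2-fold higher and 0 lower (median log2 4.23, beside -0.01 for all genes). One of the 12, Adgre1, is a gate gene.

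Pf4, a chemokine also known as CXCL4, had 272 UMIs in 10 of 13 C1q cells and 0 in the other 52 cells (at least 606-fold higher), with 41.2% of them in 1 cell. Trem2, a lipid-sensing receptor, was seen in 7 C1q cells at 429 CPM (293 to 606), in 1 class II cell without C1q, and in 6 of the 28 cells with neither at 60.9 CPM. Pf4 was thus seen in C1q cells alone among quadriceps gated cells, and Trem2 was not.

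Receptors for debris and lipid were also higher in C1q cells. Cd36, a receptor for oxidised lipid, was 35.1-fold (16.3 to 86.6) higher, and Stab1, a scavenger receptor, 104-fold (26.4 to 894) with 31 against 2 UMIs. Mrc1, the mannose receptor, was seen in 11 of 13 at 509 CPM, against 83.2 in class II cells without C1q and 16.2 in cells with neither. Apoe, a lipid carrier, stood at 2453 CPM in 8 C1q cells and at 1777 CPM in 19 of the 28 cells with neither. It was thus no mark of C1q cells alone. Of 17 lysosomal genes 7 were 2-fold higher and 0 lower, with Ctsb (cathepsin B) at 1166 and Lgmn (legumain) at 589.8 CPM. Of 5 Fc receptor genes 3 were 2-fold higher (Fcgr1, Fcgr3, Fcgrt), beside 13.6% of all genes tested.

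Genes known from resident macrophages were held by a subset. Lyve1, a hyaluronan receptor, and Folr2, a folate receptor, together reached 2 UMIs in 5 of 13 quadriceps C1q cells and 1 of 3 diaphragm C1q cells. Lyve1 had 24 UMIs in 4 cells and 0 in the other 52 (at least 53.5-fold higher), but 79.2% of them came from 1 cell. That cell held 19 Lyve1, 13 Folr2, 17 Mrc1 and 112 Pf4 UMIs. Cbr2, a carbonyl reductase, had 19 UMIs in 5 C1q cells against 2 elsewhere. Timd4, Vsig4 and Cd209f were at 0 in all 73 cells.

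Classical monocyte genes were low in C1q cells. Of 8 classical monocyte genes tested, 5 were at least 2-fold lower (Chil3, Hp, Ifitm6, Ly6c2, Plac8) and 0 higher (median log2 -5.40). None of the 13 C1q cells reached 5 UMIs of Ly6c2, Plac8 and Chil3 together, and none had 2 UMIs of Cd209a. Of 4 type 2 dendritic genes tested 3 were lower (Cd209a, Clec10a, Ifi30) and 1 higher, Mgl2, which stood at 241 CPM in C1q cells and 234 in class II cells without C1q. Ccr2, the receptor that draws monocytes from marrow, was nevertheless seen in 11 of 13 at 697 CPM, against 768 in class II cells without C1q and 893 in cells with neither. Of 25 immediate early and stress genes 6 were 2-fold lower and 2 higher. Of all genes tested 11.5% were 2-fold lower and 13.6% higher.

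The 24 quadriceps cells with class II and no C1q had dendritic features. Their class II sum ran 75, 254 and 790 UMIs and their Lyz2 7, 40.5 and 460. Against the other 41 quadriceps gated cells, 54 of 1286 genes tested (4.2%) were at least 2-fold higher and 117 of 1286 genes tested (9.1%) at least 2-fold lower, with the 3 class II genes of the cut left out. Of 5 genes of type 2 conventional dendritic cells tested, 4 were 2-fold higher (Cd209a, Clec10a, Klrd1, Mgl2, median log2 4.15, beside -0.02 for all genes). All 3 tested genes of type 1 conventional dendritic cells were 2-fold higher (Batf3, Irf8, Naaa). Of the 106 Irf8 UMIs of the 24 cells, 30 and 33 sat in the 2 cells that held Xcr1 and Clec9a. The Irf8 fold thus leaned on these cells, and the fold without them was not computed.

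Cd209a, a C-type lectin related to DC-SIGN, had 195 UMIs in 15 of 24 cells, at 0, 5.5 and 33 UMIs per cell, and 6 UMIs in the other 41, a ratio of 41.3-fold (18.6 to 114). Klrd1, the lectin CD94 of NK and dendritic cells, had 59 UMIs in 14 cells and 0 elsewhere (at least 25.0-fold), and Clec10a, a galactose lectin, was 18.6-fold (8.23 to 52.2) higher. Flt3, the receptor for a dendritic growth factor, was seen in 13 of the 24 and in 0 of 13 C1q cells. The lectins and Flt3 therefore sat on the class II side of the split.

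Of 7 other class II presentation genes tested, 3 were 2-fold higher and 1 lower (Lgmn), beside 4.2% and 9.1% of all genes tested. Cd74, the invariant chain, was 6.10-fold (5.76 to 6.47) higher, H2-DMb1 7.39-fold (5.45 to 10.2) and H2-DMa, the other chain of the peptide exchanger, 3.96-fold (3.10 to 5.11). Macrophage genes were lower, with 5 of 6 at least 2-fold lower and 7 of 17 lysosomal genes lower. Of 9 genes of migratory dendritic cells, 2 had UMIs in quadriceps gated cells (24 in 19 cells) and 3 in diaphragm (10 in 5 cells). Ccr7, Fscn1 and Ccl22 were at 0 in all 73 cells, while Ccr7 stood at 293 CPM in the other immune barcodes. Zbtb46, a transcription factor of conventional dendritic cells, had UMIs in 7 of 24 cells.

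This group was itself mixed. Of the 24 cells, 6 had 2 or more Cd209a UMIs without monocyte genes (Ly6c2, Plac8 and Chil3 together at 5 or more), 6 had monocyte genes without Cd209a, 9 had both and 3 had neither. Plac8 was seen in 16 of the 24 and made up most of the monocyte sum, with 314 UMIs against 44 of Ly6c2 and 0 of Chil3. It also had UMIs in 30.6% of the other immune barcodes of quadriceps, so this sum alone does not set monocytes apart here. Xcr1 and Clec9a, receptors of type 1 conventional dendritic cells, reached 2 UMIs together in 2 cells, each with 3 Xcr1 and 2 Clec9a UMIs, and these held 30 and 33 Irf8 UMIs and no Cd209a. One of them, with 24712 UMIs, also held 65 of the 68 Stmn1 UMIs of the group and 11 Mki67 UMIs, genes of dividing cells. The Stmn1 level of the group thus rests on 1 cell (95.6%).

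Monocyte genes marked most quadriceps cells. The sum of Ly6c2, Plac8 and Chil3 reached 5 UMIs in 40 of 65 cells (61.5%, 48.6 to 73.3) of quadriceps, of which 15 were class II cells without C1q, 25 had neither C1q nor class II and 0 had C1q. The sum was 0 in 24 cells and 1 to 4 in 1 cell, so it too was nearly all or none. In diaphragm 0 of 8 cells had any UMI of the 3 genes, which allows a share of up to 37.5%. Thinned to 1000 UMIs, 1 or more UMIs remained in 55.4% of quadriceps gated cells (63.1% unthinned), in 26.2% of other immune barcodes (45.7% unthinned) and in 2.78% of FAP barcodes. UMIs of these genes were thus not limited to the gated cells.

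The 28 cells with neither C1q nor class II were 24 monocyte-gene cells, 3 cells rich in S100a8 and S100a9 and 1 cell rich in smooth muscle genes. In the 24 cells Lyz2 ran 69, 420.5 and 731 UMIs, above the median of 41 of the C1q cells and 40.5 of the class II cells. Plac8 was seen in all 24 at 8, 23 and 79 UMIs, Ly6c2 in 23 at 0, 5.5 and 54, Ccr2 in 22 and Chil3 in 16. Ly6c2 is nearly identical to Ly6c1, so reads may be shared between these genes. Set against the 37 C1q or class II cells, 118 of 1274 genes tested (9.26%) were at least 2-fold higher and 59 of 1274 genes tested (4.63%) at least 2-fold lower.

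Classical monocyte genes led this group, which was set by the absence of C1q and class II and not by monocyte genes. Of 8 tested, 6 were 2-fold higher (Chil3, Fn1, Hp, Ifitm6, Ly6c2, Plac8) and 0 lower (median log2 1.51, beside 0.10 for all genes). Hp, haptoglobin, had 146 UMIs in 22 of 24 cells against 4 in the 37, a ratio of 56.1-fold (21.4 to 209). Chil3, the chitinase-like protein Ym1, had 164 UMIs in 16 cells against 0 (at least 84.0-fold). Mgst1, a glutathione transferase, was 37.8-fold (15.8 to 118) higher. C3, the central complement component, was 16.9-fold (6.82 to 54.1) higher, with 55 UMIs in 20 of 24 cells. Its level of 258 CPM was nevertheless below the 812 CPM of quadriceps barcodes outside the gate.

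Non-classical monocyte genes crossed this group. Ace, Treml4 and Spn together reached 3 UMIs in 5 of the 24 cells and 1 UMI in 16. Nr4a1, a nuclear receptor that non-classical monocytes need and an immediate early gene, stood at 714 CPM in the 28 cells with neither, against 289 in class II cells and 134 in C1q cells. In the contrast of the 24 monocyte-gene cells with the 37 C1q or class II cells, 7 of 22 immediate early and stress genes were 2-fold higher (Dusp1, Fos, Ier2, Jun, Klf2, Nr4a1, Zfp36) and 0 lower, beside 9.26% and 4.63% of all genes tested. Cx3cr1, the fractalkine receptor, was seen in 15 of 28 cells with neither at 126 CPM and in 7 of 13 C1q cells at 389 CPM.

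**Figure D2:**
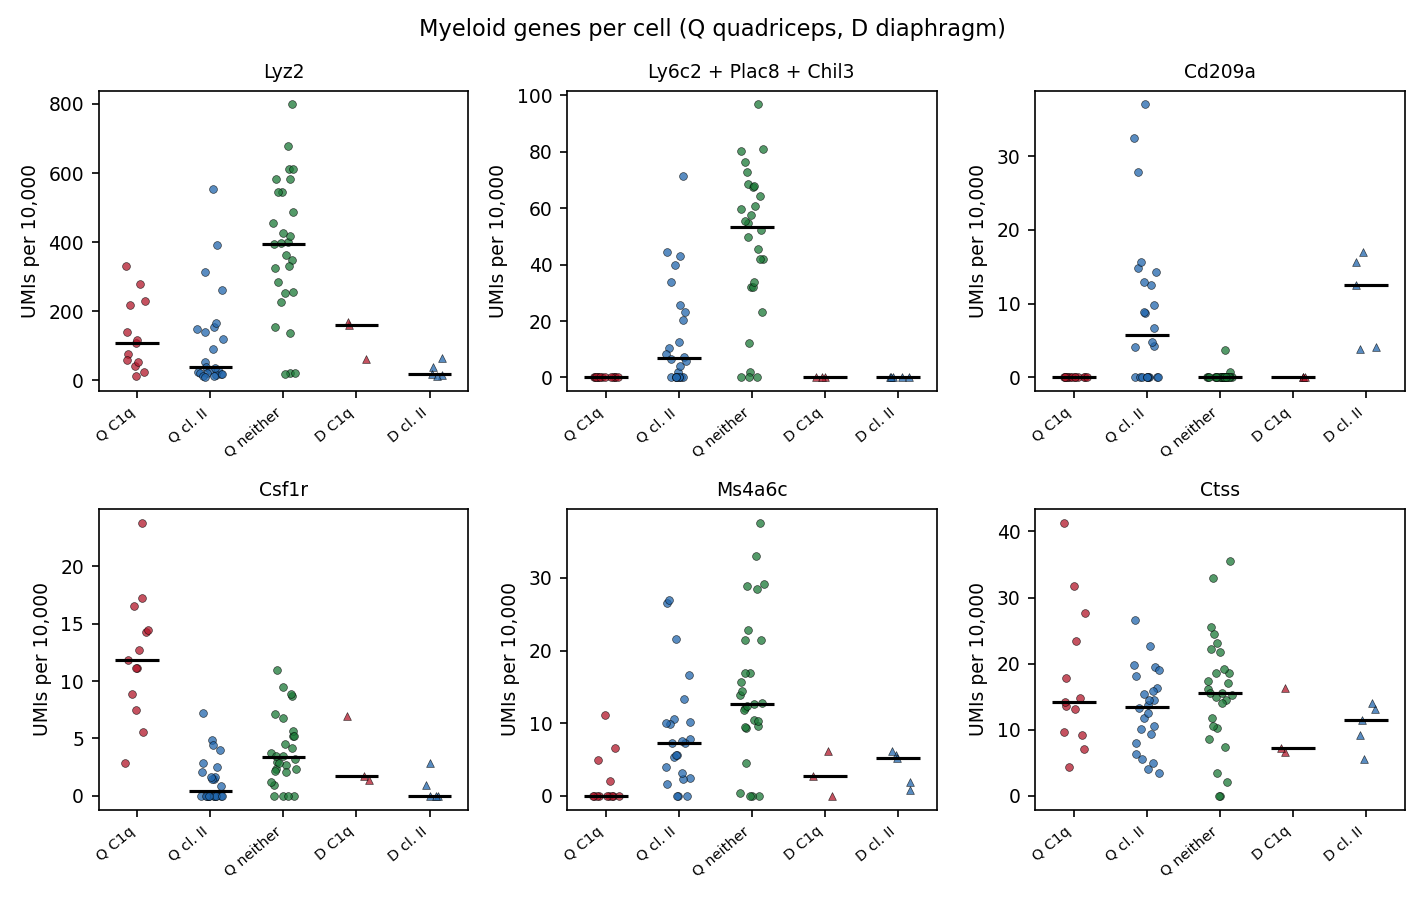
UMIs per 10000 UMIs of each gated cell for Lyz2, the sum of Ly6c2, Plac8 and Chil3, Cd209a, Csf1r, Ms4a6c and Ctss (vertical axes) in the quadriceps and diaphragm groups (horizontal), with bars at the medians. Lyz2 and the monocyte sum are highest in the quadriceps cells with neither C1q nor class II, Cd209a reaches 2 UMIs in 15 quadriceps class II cells and 1 cell with neither, and the diaphragm cells lie at 0 for the monocyte sum.

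A group of 3 quadriceps cells carried a neutrophil-like profile. They held 463, 659 and 759 UMIs of S100a8 and S100a9, the calgranulin subunits, in totals of only 3500, 2881 and 3105 UMIs. Retnlg, a resistin-like gene of neutrophils, had 43, 29 and 100 UMIs, Csf3r, the receptor for granulocyte colony-stimulating factor, 9, 3 and 9, and Il1b 37, 30 and 51. Lyz2 was low, at 6, 39 and 6, near the gate minimum in 2 of them. Ly6g, Camp and Ngp, genes of neutrophil granules and surface, were at 0 in all gated cells, and the mitochondrial share of these cells was below 1%.

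One cell held other RNA. It had 23955 UMIs, 13.2% of them mitochondrial, with 50 Lyz2 UMIs beside 536 Acta2, 422 Tagln and 165 Myh11 UMIs, genes of smooth muscle. It supplied 86.2% of all Acta2 UMIs of the quadriceps gated cells, and Acta2 stood at 156 CPM without it, against 1085 with it. Scrublet, a doublet caller, marked 1 of the 65 quadriceps and 0 of the 8 diaphragm gated cells. Leaving out its calls gave the same values as leaving out the cell with smooth muscle genes. In both settings 64 quadriceps cells remained, and 42 and 61 genes were past 2-fold between the muscles. The values thus point to the same cell.

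Retnla, the resistin-like protein RELM alpha, and Lyz1, the near copy of Lyz2, were high in the same few cells. Retnla reached 10 UMIs in 4 quadriceps cells, with 143, 187, 266 and 546 UMIs, and in 2 diaphragm cells, with 326 and 709. In that order these 6 cells held 4, 32, 21, 10, 52 and 55 Lyz1 UMIs. Only 1 other cell in the gate reached 4 Lyz1 UMIs, a quadriceps C1q cell with 6. Of the 4 quadriceps cells 2 had C1q sums of 8 and 26 and 2 had class II without C1q, and both diaphragm cells had C1q (sums 127 and 71). The remaining gated cells held at most 1 Retnla UMI. Lyz1 was seen in 7 quadriceps and 5 diaphragm gated cells, and in 9 and 4 barcodes outside the gate. Since Lyz1 and Lyz2 reads may be shared, low Lyz1 counts are uncertain, but Lyz2 in the 6 cells (24 to 144 UMIs) was not above the range of the others.

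**Figure D3:**
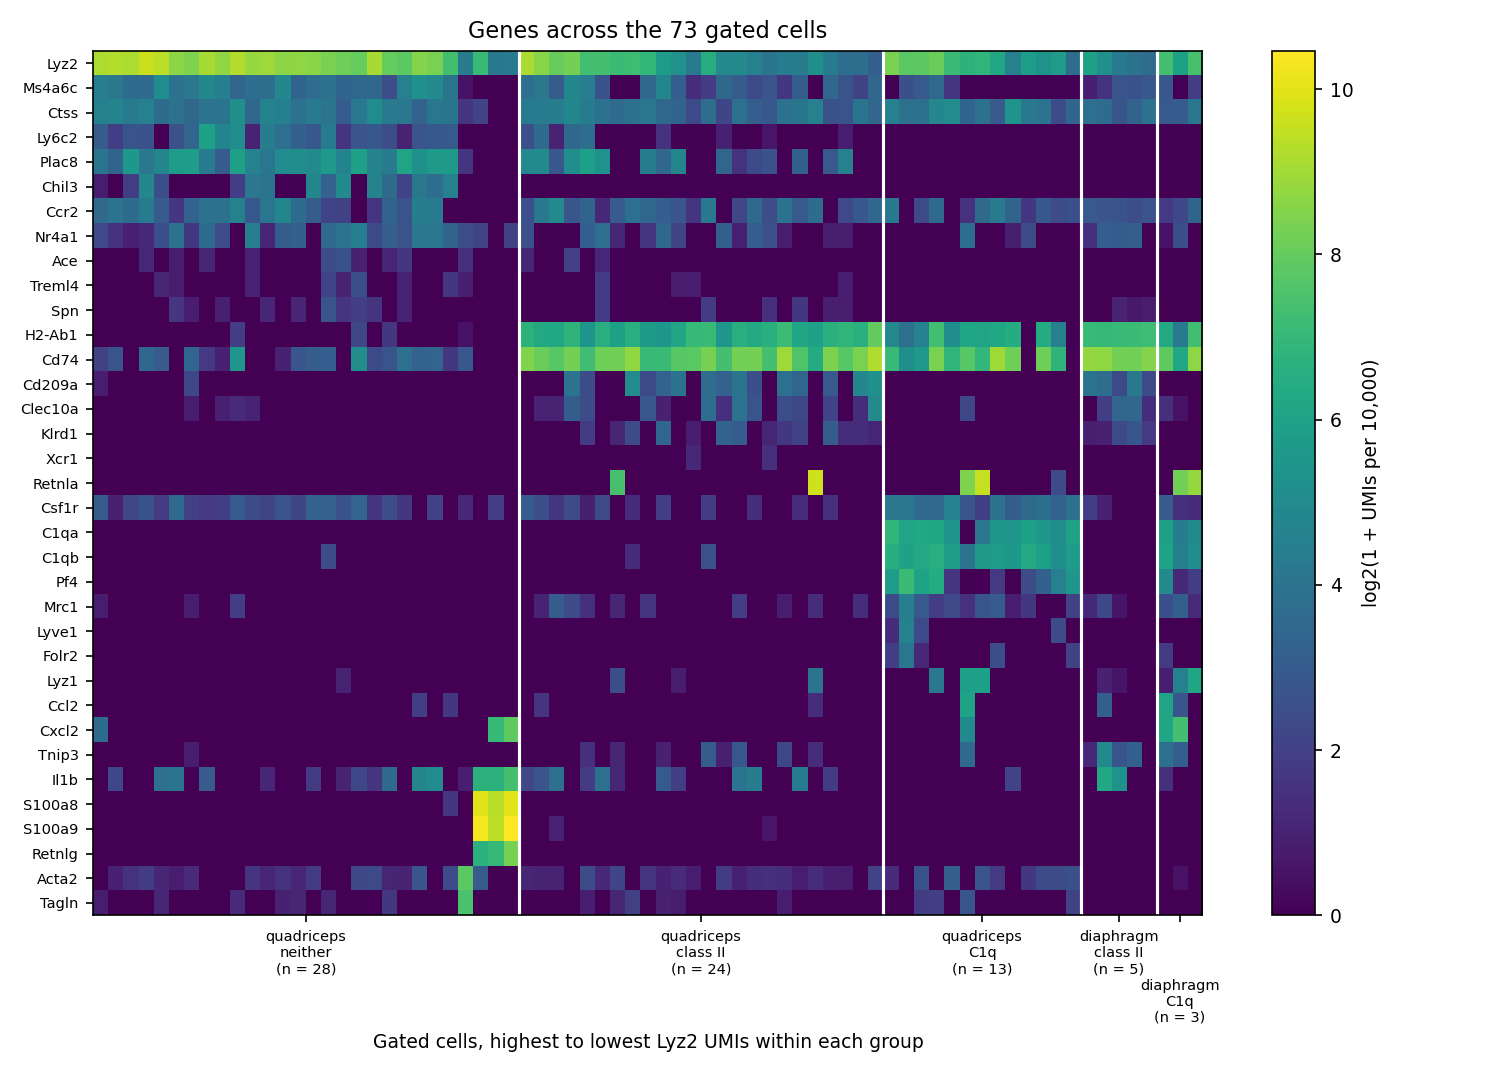
Heat map of log2(1 + UMIs per 10000) for genes of the label, C1q, class II, monocyte, dendritic, neutrophil and Retnla groups (rows) in the 73 gated cells (columns, by group and from the highest to the lowest Lyz2 UMIs). C1qa and C1qb are high in the 13 quadriceps and 3 diaphragm C1q columns, Plac8 fills most columns of the 28 quadriceps cells with neither, and S100a8 and S100a9 are bright in 3 columns.

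Chemokine ligands were spread unevenly. Ccl6 and Ccl9 were seen in 56 and 56 of 65 quadriceps cells and in 7 and 8 of 8 diaphragm cells. Ccl3 and Ccl4, related chemokines for which sharing of reads was not checked, were seen in 28 and 20 quadriceps cells and in 3 diaphragm cells each. Cxcl2, a neutrophil attractant, had 149 UMIs in 4 quadriceps cells, 117 of them in 2 of the S100a8 cells, and 547 in 2 diaphragm cells. Il10, Il6, Ccl7 and Cxcl1 were at 0 in quadriceps. Tgfb1, a growth factor of matrix production, was seen in 53 and 7 cells at 307 and 211 CPM, while Igf1 had 3 and 2 UMIs in the gated cells and 421 CPM in the FAP gate of quadriceps.

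The libraries held the groups in different shares. Ly6c2, Plac8 and Chil3 together reached 5 UMIs in 40 of 65 quadriceps cells (48.6 to 73.3%) and 0 of 8 diaphragm cells (0 to 36.9%). These genes do not stand for the whole list of 13 classical monocyte genes. Of that list 7 had UMIs in diaphragm, seen in all 8 cells. It summed to 7379 CPM in quadriceps and 3464 CPM in diaphragm gated cells. Of 6 of its genes tested, 3 were 2-fold higher in quadriceps and 1, Fn1, in diaphragm. Class II was held by 34 of 65 and 8 of 8, intervals 39.5 to 64.9% and 63.1 to 100%. The intervals of the monocyte sum do not overlap, whereas those of class II share a narrow range. The monocyte sum was not among the planned shares. Plac8 and Ly6c2 were also among the genes most apart between the muscles in these same cells. The gap between its intervals is therefore a description and no test. The C1q intervals, 11.1 to 31.8% and 8.52 to 75.5%, overlapped widely. These intervals do not cover differences between animals.

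**Figure D4:**
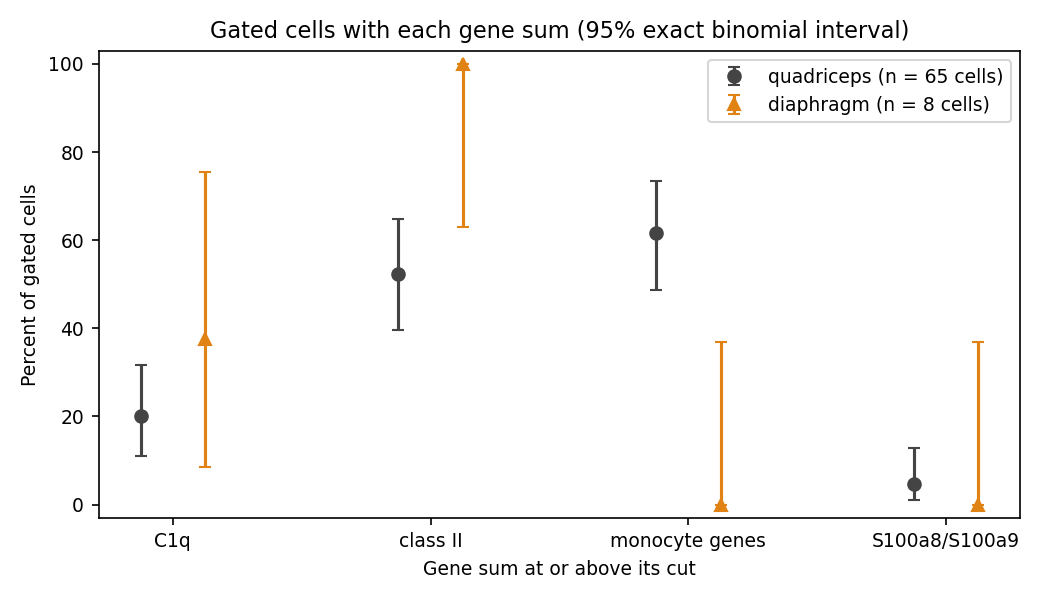
Percent of gated cells (vertical axis) with C1q, class II, monocyte genes, or S100a8 and S100a9 in quadriceps (65 cells) and diaphragm (8 cells), with 95% exact binomial intervals as bars. The sum of Ly6c2, Plac8 and Chil3 (monocyte genes) stands at 61.5% against 0%, class II at 52.3% against 100%, and C1q at 20% against 37.5%.

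Over all gated cells, 44 of 632 genes tested (6.96%) were at least 2-fold higher in quadriceps and 64 of 632 genes tested (10.1%) at least 2-fold higher in diaphragm, with a median log2 fold of 0.05. Plac8 had 1057 UMIs in 41 quadriceps cells and 0 in diaphragm (at least 84.6-fold higher), and Ly6c2 278 and 0 (at least 22.3-fold). Outside the gate Plac8 was not higher in quadriceps, at log2 -0.67 (quadriceps over diaphragm). Ifitm6, an interferon-induced membrane protein, was 17.9-fold (6.06 to 87.6) higher in quadriceps and seen in 47 of 65 cells. S100a8 and S100a9, at 841 and 1043 against 0 UMIs, rested on the 3 cells above. The smooth muscle cell held most Tagln and Acta2 UMIs, but without it Acta2 was still higher in quadriceps at log2 4.25, with UMIs in 48 of 65 cells against 1 of 8, and Tagln stood at 41.9 CPM against 0. Both were also higher in quadriceps outside the gate, at log2 5.05 and 5.07.

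Some chemokines and lectins were among the genes higher in diaphragm. The 8 diaphragm cells are listed here in 1 order, from the highest to the lowest Lyz2 (391, 153, 144, 125, 39, 37, 21 and 16 UMIs), with C1q in the first, the third and the fourth. Ccl2, the ligand of CCR2, had 164, 0, 14, 0, 8, 0, 0 and 0 UMIs, so that 88.2% came from 1 cell, and its ratio was 19.4-fold (13.7 to 28.0). Cxcl2 had 169, 0, 378, 0, 0, 0, 0 and 0, Ccl7 120, 0, 1, 0, 0, 0, 0 and 0 and Cxcl1 86, 0, 0, 0, 0, 0, 0 and 0. Most of these UMIs therefore sat in 2 C1q cells. In quadriceps Ccl2 was led by 1 cell, which held 35 Ccl2, 17 Cxcl2 and 6 Tnip3 UMIs. That cell passed the C1q cut with the lowest sum of the C1q cells, 8 UMIs, all of C1qb. It also held 187 Retnla and 32 Lyz1 UMIs. Of 9 chemokine ligands tested 4 were 2-fold higher in diaphragm (Ccl2, Ccl7, Cxcl1, Cxcl2) and 1 in quadriceps (Ccl3). Of all genes tested 10.1% were 2-fold higher in diaphragm and 6.96% in quadriceps.

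Other genes were spread over more diaphragm cells. Mgl2, a galactose lectin of dendritic cells and macrophages, had 9, 53, 3, 15, 12, 0, 16 and 27 UMIs, a ratio of 7.30-fold (5.48 to 9.79) over quadriceps, where it was seen in 13 of 65 cells. Tnip3, an inhibitor of NF-kappaB signalling, had 32, 3, 18, 0, 32, 11, 13 and 0 UMIs, a ratio of 16.2-fold (10.6 to 25.5), and Cd83, a surface protein of activated antigen-presenting cells, 35, 5, 5, 1, 34, 37, 11 and 0, a ratio of 6.13-fold (4.63 to 8.14). Each was seen in 6 or 7 of the 8 cells. Cd209a had 0, 38, 0, 0, 13, 8, 26 and 5 UMIs, in each of the 5 cells without C1q and in none of the 3 with it. Il1b had 4, 0, 0, 0, 77, 76, 0 and 0, nearly all in 2 class II cells without C1q.

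**Figure D5:**
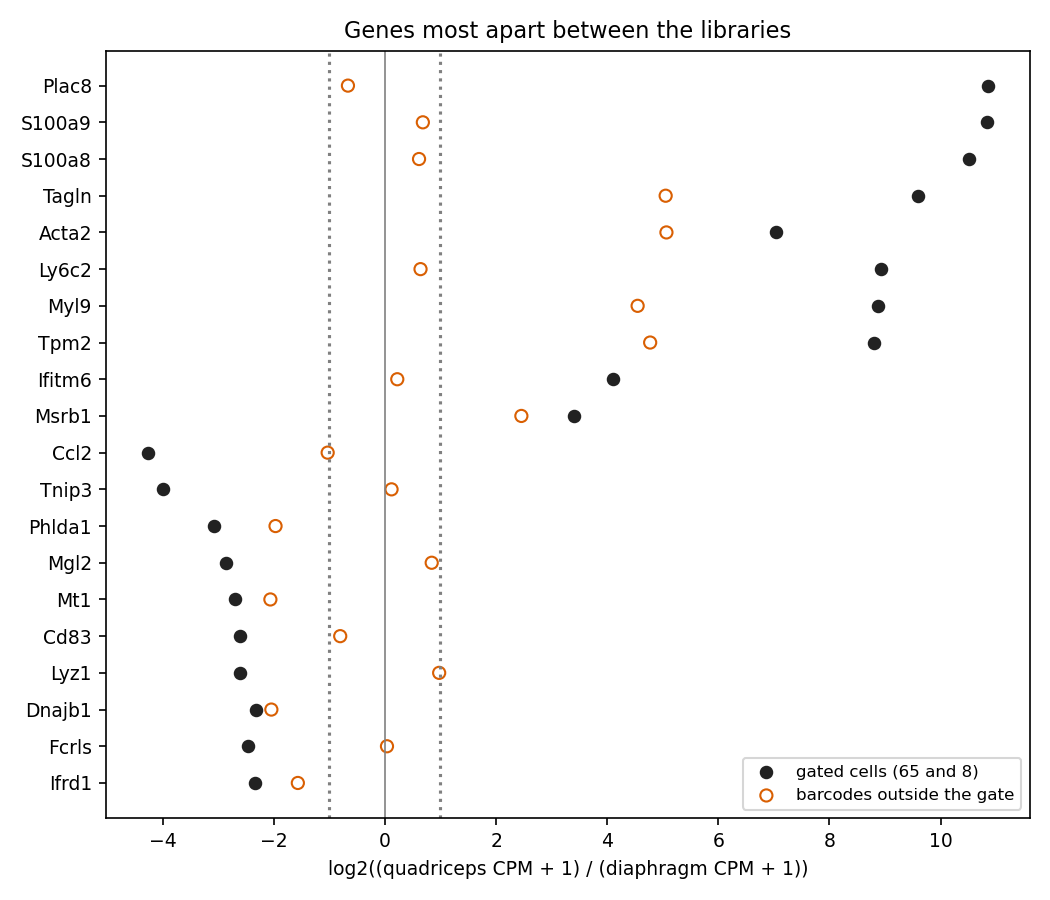
Log2 of quadriceps over diaphragm CPM (each plus 1) for 20 named genes in the gated cells and in barcodes outside the gate, with dotted lines at a 2-fold change. Plac8 is far to the quadriceps side in gated cells but at -0.67 outside, while Tagln and Acta2 are high in both, and the size of folds against 0 UMIs depends on the added 1 CPM.

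Class II genes differed over all gated cells but not past 2-fold within the class II cells. Over all gated cells 5 of 9 class II genes tested were at least 2-fold lower in quadriceps (Cd74, H2-Aa, H2-Ab1, H2-DMa, H2-Eb1, median log2 -1.02). Cd74 stood at 13972 CPM (13667 to 14281) in quadriceps and 29446 CPM (28547 to 30367) in diaphragm. Among the 24 and 5 class II cells without C1q, 0 of 8 were 2-fold lower and 0 higher (median log2 -0.35), with Cd74 at 26261 and 36611 CPM. Because the class II cut of 10 UMIs was met by all of these cells, their levels share that floor.

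Within class II cells without C1q, 30 of 591 genes tested (5.08%) were at least 2-fold higher in quadriceps and 36 of 591 genes tested (6.09%) in diaphragm. Plac8 again stood at 314 UMIs in 16 of 24 cells against 0 in 5 (at least 34.1-fold), and Irf8, a transcription factor of monocytes and type 1 dendritic cells, at 106 in 9 cells against 0 (at least 11.5-fold). Of these 106 Irf8 UMIs 100 sat in 4 cells, 63 of them in the 2 cells with Xcr1 and Clec9a. Of 4 chemokine ligands tested 3 were 2-fold higher in quadriceps (Ccl3, Ccl4, Ccl6) and 0 in diaphragm, with Ccl3 at least 13.2-fold higher. Cebpb, a transcription factor of myeloid cells, was 13.6-fold (5.72 to 42.2) higher in quadriceps here, whereas among C1q cells it was 4.39-fold (3.29 to 5.91) higher in diaphragm, at 3703 against 844 CPM, with 46.8% of its diaphragm UMIs in 1 of 3 cells. On the diaphragm side Tnip3 was 8.61-fold (5.16 to 14.9) higher, Mgl2 5.61-fold (4.05 to 7.85) and Cd83 5.56-fold (3.86 to 8.08). Ccnd2, a cyclin, was 17.5-fold (7.77 to 46.4) higher, with 72.5% of its 40 diaphragm UMIs in 1 cell.

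Immediate early and heat shock genes included members higher in either muscle. Of 22 tested, 4 were 2-fold higher in quadriceps gated cells (Fos, Ier2, Jun, Klf2) and 3 in diaphragm (Dnajb1, Hsp90aa1, Nfkbia), beside 6.96% and 10.1% of all genes tested. Fos, an AP-1 subunit, stood at 1592 CPM (1490.3 to 1699) in quadriceps and 479 CPM (371 to 609.8) in diaphragm, with 0, 4, 0, 50, 0, 2, 10 and 0 UMIs in the 8 cells, 50 of them in 1 C1q cell. Per cell it ran 0, 8 and 112 UMIs in quadriceps, so the groups overlapped. In the FAP gates the order was the other way, at 274 and 2696 CPM. Dnajb1, a heat shock co-chaperone, was 5.04-fold (3.93 to 6.48) higher in diaphragm gated cells and was also higher there outside the gate (log2 -2.04), as were Phlda1 (-1.97), Mt1 (-2.06) and Ifrd1 (-1.57). Each of these 4 genes was thus higher in diaphragm both inside and outside the gate.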

How the data were processed

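The deposited values were UMI counts per gene and barcode, which the authors made from 10x Chromium 3′ reads of 1 quadriceps and 1 diaphragm library. The submitters' processing notes name Cell Ranger 3.0.0, Seurat and mm10, and the counts in the files were used with no rescaling by the authors. The files list 27998 genes. The gate and its cuts are given with the results. B, T and NK gates required 3 or more UMIs of Cd79a and Cd79b, 2 or more of Cd3d, Cd3e and Cd3g, or 3 or more of Nkg7, Klrb1c and Ncr1, with fewer than 5 of Lyz2, none of Pdgfra and no other lymphocyte gate met. No doublet caller was applied in the main results, and 5 barcodes occurred in both libraries, 0 of them gated.

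Counts were summed over cells and given as CPM. With 1 library per muscle no test was made. Folds used a pseudocount of 1 CPM and genes with a mean of at least 200 CPM (muscles), 50 CPM (other immune barcodes) or 100 CPM (groups within the gate), and called means past 2-fold or 4-fold. Ratios with intervals came from summed counts, and a ratio against 0 counts was set against 3 counts over the group. Thinning kept 1000 UMIs per cell. Named were the 7 label markers and 11 gate genes, the highest and the absent members of each list, up to 10 genes per contrast and direction seen in 3 or more cells and ranked by the interval bound nearest to no change, and Lyz1. Other genes named were chosen after their values were seen. The gate, groups and gene lists were chosen with earlier results of these data known. Clec7a, Ighm, Trbc1, Trbc2 and Trac were not analysed here. The scripts recovered known changes on simulated data and used Python 3.11.15, numpy 2.4.6, scipy 1.17.1, pandas 2.3.3, scanpy 1.11.5 and matplotlib 3.10.9.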

Additional observations from a re-analysis of the deposited data

Results flagged for a closer look

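S100a8 and S100a9, subunits of calprotectin, also marked barcodes that the comparisons did not use. In quadriceps 6 of 4570 barcodes outside the gate and within the UMI and mitochondrial limits held 20 or more UMIs of both genes together, the highest with 446, beside 3 of the 65 gated cells. In diaphragm 2 of 2362 such barcodes did, the highest with 349, and 0 of the 8 gated cells. These counts are a signal outside the gated cells.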

How the results depend on the processing

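Over 11 results 166 values were recomputed under other settings, of which 157 stayed within the 95% interval (shares) or within 1.5 times (gene counts) of the reported value, 9 moved further and 0 reversed. All 9 moves came from the minimum CPM of the genes counted, which sets how many genes enter. The genes at least 2-fold higher in quadriceps, 44, became 93 at 0.5 times the minimum, 16 at 2 times and 4340 with none. Those higher in diaphragm, 64, became 126, 35 and 1693, and those at least 4-fold above the other immune barcodes, 221, became 364, 115 and 955. The share of quadriceps gated cells with C1q ran from 11.3 to 23.1%, with class II from 47.2 to 58.5% and with monocyte genes from 55.4 to 71.7%. In diaphragm they ran from 25 to 37.5%, from 87.5 to 100% and at 0%. The gated share of quadriceps barcodes ran from 1.03 to 1.26%. Some settings were added after seeing the data. Scrublet called 1.84% of quadriceps and 0.120% of diaphragm barcodes, the latter too few to show that it worked there. The 8 diaphragm cells limit every diaphragm value. No paired analysis was possible because each muscle had 1 library.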

Other observations

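Interferon response genes were unevenly held by the groups. Of 20 genes 19 had UMIs in quadriceps gated cells. Their summed level was 2104 CPM in C1q cells, 5232 in class II cells without C1q and 8141 in cells with neither. It was 624 in the other immune barcodes and 3009 in the FAP gate of quadriceps, the latter above that of the C1q cells. Lipid handling genes summed to 5885 CPM in C1q cells, 2483 in class II cells without C1q and 4849.5 in cells with neither, all of quadriceps.

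Genes of dividing cells had UMIs in 56 of 65 quadriceps cells and reached high levels in few. The cell cycle list ran 0, 3.23 and 108 UMIs per 10000 in quadriceps (lowest, median, highest) and 1.36, 4.95 and 51.3 in diaphragm. The highest diaphragm value belonged to the cell that also led Ccl2, with 9 Mki67 and 48 Stmn1 UMIs. Endothelial genes summed to 57.5 CPM and tenocyte genes to 17.4 CPM in quadriceps gated cells, and Cdh5, Kdr, Pax7, Myf5, Scx and Mkx were at 0 there.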
